A study of Mus musculus with 346 samples.

Results

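The genes described here encode proteins that join epithelial cells to one another or mark their surface: the cell surface glycoprotein Epcam, the classical cadherins Cdh1 and Cdh3, the claudins Cldn3, Cldn4 and Cldn7, the desmosomal proteins Dsp, Jup and Perp, and the tight junction scaffold Tjp1. They were taken by name, through their Entrez numbers, and make up 10 of the 25142 genes analysed and of the 27179 genes in the files. Their transcripts were followed by single-cell RNA-seq in the mammary glands of untreated female FVB/NJ mice, an inbred laboratory strain, at 3 stages of post-natal development. Pre-puberty (2 weeks) gave 144 cells, Puberty (4.7 to 4.9 weeks) 136 and the Adult (10 weeks of age) 66. The labels call the cell source total epithelium, and in the study's methods the sort removed cells with the blood, endothelial and leukocyte markers Ter119, CD31 and CD45 before capture on Fluidigm C1 chips.

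The coverage filter of the study (at least 100000 reads on the analysed genes and 1500 genes detected) kept 116 pre-pubertal, 119 pubertal and 44 adult cells, with medians of 296624, 574973 and 334777 reads. The median numbers of genes detected in these cells were 3570, 3596 and 2926.5. The study lists more retained pubertal and adult cells on this platform than the samples used here hold, so these are not all of its cells. No label ties a cell to a mouse, a sort or a chip. Each stage therefore counts as 1 sample, no difference between stages has a replicate check, and the intervals given reflect the counting of reads or cells and nothing else.

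The pre-pubertal cells went against their epithelial label in the luminal markers, but not to that extent in the basal ones. The luminal markers (8 genes, keratins 8 and 18 among them) summed to 199 counts per 1000000 reads (CPM) there, against 8401 CPM at puberty and 9804 CPM in the adult. Basal markers (8 genes, with keratins 14 and 5) summed to 1709, 2653 and 7225 CPM, with medians of 2, 1 and 4.5 of them per cell. Markers of Schwann cells, the glia of peripheral nerves, ran the other way, at 14149 CPM before puberty, 1396 CPM at puberty and 299.8 CPM in the adult. At least 7 of the 13 Schwann markers were detected in 114 of 116 pre-pubertal cells, in 3 of 119 pubertal cells and in 0 of 44 adult cells, a count of 0 that allows a share of up to 6.82% (3 of 44). Fibroblast markers (7 genes) summed to 7540, 1843 and 1324 CPM, but the single genes went both ways. Col3a1, at 5282 CPM before puberty, was highest at that stage, as were Col1a1 and Col1a2. Dcn stood at 354, 842 and 856 CPM in order of stage. Dpt and Lum were also higher at puberty than before it, and Pdgfra was highest in the adult. Skin keratinocyte markers (5 genes) stayed between 6.19 and 8.45 CPM at every stage. In the differences from pre-puberty, the kind of cell and the stage therefore cannot be told apart.

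Epithelial sheets are held together by several kinds of junction. Adherens junctions are built on cadherins, which bind across the gap between cells and hook to actin through catenins. Desmosomes anchor keratin filaments at the membrane through plakoglobin (Jup) and desmoplakin (Dsp), with Perp as a further membrane component. Tight junctions close the gap near the cell apex with claudins and occludin, which are tied to scaffolds such as ZO-1, the product of Tjp1. In the mammary duct E-cadherin (Cdh1) is characteristic of the inner luminal cells and P-cadherin (Cdh3) of the outer myoepithelial layer, and Epcam antibodies are widely used to sort the luminal from the basal cells.

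The members lie on 7 chromosomes in the mm10 genome (RefSeq coordinates of GRCm38.p6), and 4 of them lie close together in pairs. Cldn4 (chr5:134945123-134946934) and Cldn3 (chr5:134986214-134987476) are separated by 39279 bases with no analysed gene between them. Cdh3 (chr8:106510852-106556911) and Cdh1 (chr8:106603350-106670247) are 46438 bases apart, with 1 analysed gene between. The others are Epcam (chr17:87635979-87651127), Cldn7 (chr11:69964779-69967886), Jup (chr11:100368856-100397839), Dsp (chr13:38151294-38198577), Perp (chr10:18845071-18857073) and Tjp1 (chr7:65296165-65527850).

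Epcam and the claudins stood lowest before puberty relative to their pubertal level, so the 250 bases before their start sites are shown, 5′ to 3′ on the strand of each gene, as RefSeq gives them for GRCm38.p6. Capitals mark matches to CACCTG on either strand, an E-box of the type bound by the Zeb and Snail repressors. The windows are chr17:87635729-87635978 (plus strand) for Epcam, chr5:134985964-134986213 (plus) for Cldn3, chr5:134946935-134947184 (minus) for Cldn4 and chr11:69964529-69964778 (plus) for the first start of Cldn7.
Epcam: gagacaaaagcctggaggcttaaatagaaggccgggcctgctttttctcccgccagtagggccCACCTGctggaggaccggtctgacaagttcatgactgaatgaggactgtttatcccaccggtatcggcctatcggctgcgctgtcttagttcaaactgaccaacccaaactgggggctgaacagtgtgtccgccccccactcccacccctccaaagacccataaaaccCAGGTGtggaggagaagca
Cldn3: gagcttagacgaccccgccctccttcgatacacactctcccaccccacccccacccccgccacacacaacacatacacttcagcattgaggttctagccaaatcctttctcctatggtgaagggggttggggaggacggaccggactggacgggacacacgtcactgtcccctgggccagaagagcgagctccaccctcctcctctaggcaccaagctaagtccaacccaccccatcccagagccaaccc
Cldn4: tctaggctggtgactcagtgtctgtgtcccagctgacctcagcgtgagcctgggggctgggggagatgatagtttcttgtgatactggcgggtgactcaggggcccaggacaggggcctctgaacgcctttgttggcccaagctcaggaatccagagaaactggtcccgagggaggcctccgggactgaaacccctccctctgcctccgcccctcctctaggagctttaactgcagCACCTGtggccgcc
Cldn7: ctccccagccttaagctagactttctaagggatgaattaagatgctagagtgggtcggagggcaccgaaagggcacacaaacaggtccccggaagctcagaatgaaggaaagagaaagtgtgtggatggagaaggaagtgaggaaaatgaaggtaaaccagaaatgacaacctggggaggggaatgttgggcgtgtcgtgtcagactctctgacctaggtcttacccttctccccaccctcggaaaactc
Epcam held 2 matches, 181 and 13 bases before the start, and Cldn4 held 1, 8 bases before it. Cldn3 and this Cldn7 window held none, while the window of a second Cldn7 start held 2 matches. A promoter window was given for 7 of the 10 members, Cdh1, Cdh3 and Perp being the others, and 3 of the 7 held the E-box. Counted by window, 3 of 8 member windows held it, beside 17.2% of all 32851 windows of this length. AACCNGTT, the type of site bound by Grainyhead factors, was in no member window and in 1.79% of all windows. Such matches are letters in a window and were not tested for binding.

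Epcam, an adhesion molecule of nearly all simple epithelia, lay in the middle of the members before puberty and led them at both later stages in level per length of transcript. Its level over the stage's summed reads was 16.4 CPM (95% Poisson interval 15.1 to 17.6) before puberty, 939.9 CPM (933 to 947) at puberty and 1452 CPM (1435 to 1469) in the adult. Single pre-pubertal cells ran from 0 to 2409 CPM with a median of 0, while the median was 665 CPM (0 to 3975) at puberty and 648 CPM (0 to 5236) in the adult. Most pre-pubertal cells thus lay at 0 and most later cells well above it, and cell 55 alone held 43.8% of all pre-pubertal Epcam reads. The log2 ratio, taken throughout after adding 5 CPM to both levels, was 5.47 for puberty over pre-puberty, 6.09 for adult over pre-puberty and 0.62 for adult over puberty.

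**Figure D1:**
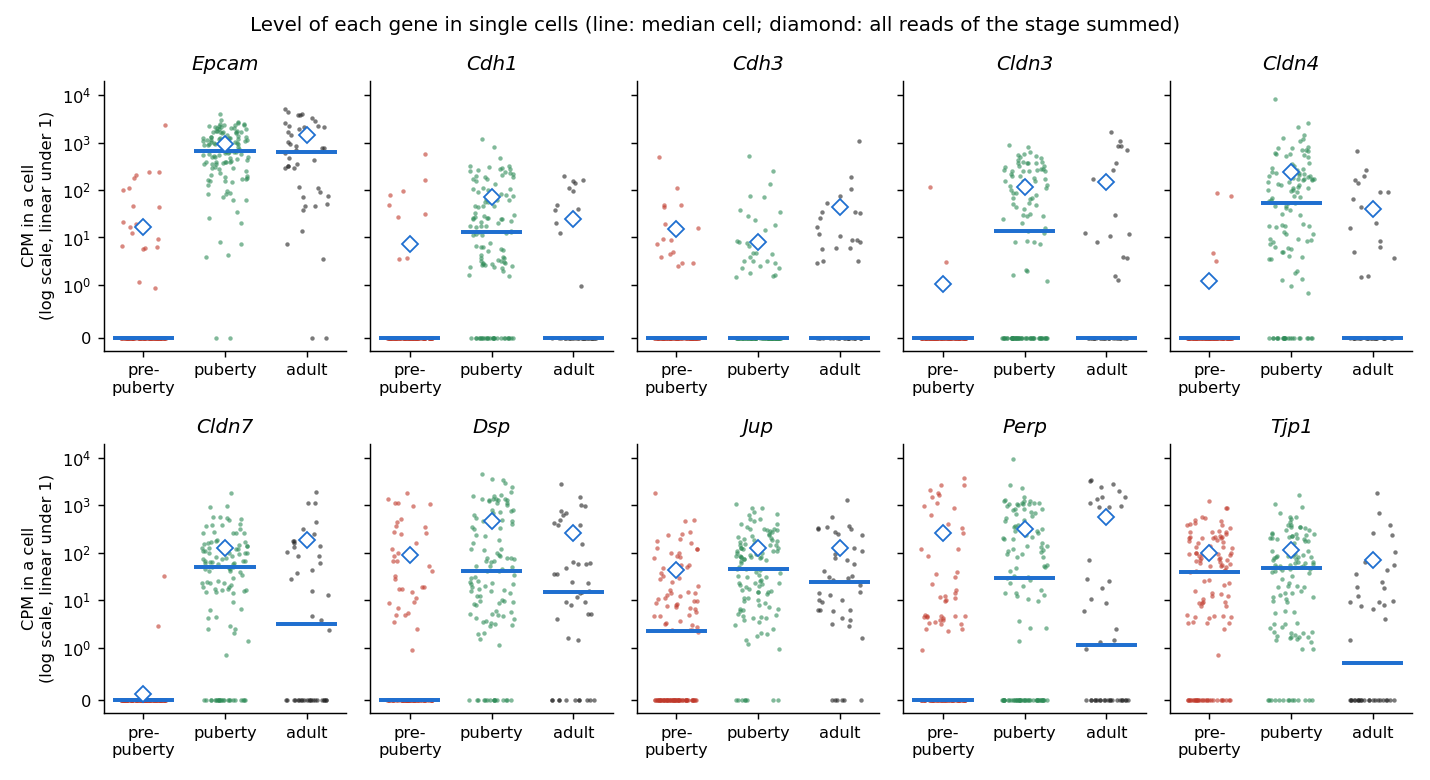
Level of each of the 10 genes in every kept cell (points; vertical axis in CPM on a log scale that is linear under 1) for the 3 stages, with the median cell as a line and the level of the stage's summed reads as a diamond. Most pre-pubertal cells lie at 0 for the claudins and for Epcam, whereas Tjp1 has a similar median cell before puberty (39.7 CPM) and at puberty (48.2 CPM).

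The claudins, which seal the space between luminal cells, were almost undetected before puberty. Cldn3 stood at 1.03 CPM (0.744 to 1.39) before puberty, 116 CPM (113 to 118) at puberty and 149.9 CPM (144 to 155.6) in the adult. Cldn4 stood at 1.20 CPM (0.890 to 1.59), 240.4 CPM (237 to 244) and 39.7 CPM (36.9 to 42.6). Cldn7 had only 5 reads in all pre-pubertal cells, 0.123 CPM (0.0399 to 0.287), against 126 CPM (124 to 129) at puberty and 189 CPM (183 to 195) in the adult. All claudins were therefore far apart between pre-puberty and the later stages, and Cldn4 was the claudin that also differed by several fold between puberty and adult (log2 ratio -2.46). For puberty over pre-puberty the log2 ratios were 4.32 for Cldn3, 5.31 for Cldn4 and 4.68 for Cldn7, all under that of Epcam. With 1 CPM added instead they were 5.84, 6.78 and 6.83, all above that of Epcam (5.76).

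Claudin detection varied from cell to cell at the later stages too. After each cell was thinned at random to 100000 reads, so that detection could be compared at equal depth, Cldn3 was found in 52.1% (exact binomial 95% interval 42.8 to 61.3) of the cells at puberty and 27.3% (15.0 to 42.8) of those of the adult. The shares were 68.9% (59.8 to 77.1) and 25% (13.2 to 40.3) for Cldn4, and 73.9% (65.1 to 81.6) and 50% (34.6 to 65.4) for Cldn7. At pre-puberty they were 0.862% for Cldn3, 2.59% for Cldn4 and 0.862% for Cldn7, that is, 1, 3 and 1 of 116 cells. Thinning evens out reads but not the number of genes a cell yields, which was lowest in the adult (median 2926.5 before thinning). Its part in the lower adult shares was not tested. The median adult cell had 0 CPM of Cldn3 and Cldn4, and single cells reached 1721 CPM and 657 CPM, so the adult levels came from a minority of cells. For Cldn3 and Cldn7 the same adult cell, cell 43, held 40.4% and 36.4% of the stage's reads.

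E-cadherin (Cdh1) was higher at puberty, as the claudins were, but low in the adult. Its summed level was 7.47 CPM (6.65 to 8.36) before puberty, 72.1 CPM (70.1 to 74.1) at puberty and 24.6 CPM (22.4 to 27.0) in the adult. Single cells had medians of 0, 12.8 and 0 CPM and maxima of 569, 1224 and 199 CPM, so the stages overlapped. At equal depth, Cdh1 reads occurred in 6.90% (3.02 to 13.1), 58.8% (49.4 to 67.8) and 22.7% (11.5 to 37.8) of the cells in order of stage. The log2 ratios were 2.63 for puberty over pre-puberty and -1.38 for adult over puberty. That for adult over pre-puberty was 1.25, and 0.98 against pre-pubertal cells 38 on.

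P-cadherin (Cdh3) was the lowest member at puberty per length of transcript. It measured 14.9 CPM (13.7 to 16.1) before puberty, 8.12 CPM (7.46 to 8.82) at puberty and 44.5 CPM (41.5 to 47.6) in the adult, and the median cell was at 0 at every stage. A single cell held 71.7% of its pre-pubertal reads (cell 27), 35.1% of its pubertal reads and 66.7% of its adult reads (cell 63). Without the leading cell of each stage the levels were 4.32, 5.33 and 15.2 CPM, and the log2 ratio of adult over puberty went from 1.92 to 0.97. The share of thinned cells with Cdh3, on which 1 cell has little weight, was 10.3% (5.46 to 17.4), 13.4% (7.88 to 20.9) and 36.4% (22.4 to 52.2).

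The desmosomal members were present before puberty, each to a different extent. Desmoplakin (Dsp) stood at 88.7 CPM (85.9 to 91.7) before puberty, at 473 CPM (468 to 478) at puberty and 257 CPM (249 to 264) in the adult. Plakoglobin (Jup), which also serves adherens junctions, measured 43.7 CPM (41.7 to 45.8), 124 CPM (121 to 126) and 125 CPM (120.2 to 130.4). Their log2 ratios for puberty over pre-puberty were 2.35 and 1.399, smaller than those of Epcam and the claudins. Single cells ranged from 0 to 1801, 4554 and 2866 CPM for Dsp, with medians of 0, 41.4 and 15.1 CPM. For Jup the medians were 2.21, 46.0 and 23.7 CPM and the maxima 1810, 1060 and 1306 CPM, so the ranges of the stages overlapped widely.

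Perp, a membrane protein of desmosomes that p53 and p63 control, had the highest pre-pubertal level of all members per length. Its summed level was 258 CPM (254 to 263) before puberty, 310.1 CPM (306 to 314) at puberty and 562 CPM (551 to 573) in the adult. Its log2 ratio was 0.26 for puberty over pre-puberty and 1.11 for adult over pre-puberty. These reads were concentrated, since the median pre-pubertal cell had 0 CPM, the highest had 3781 CPM, and 50% of the reads came from 2 cells. Detection gave another picture from the level: a Perp read was present in 27.6% (19.7 to 36.7) of the thinned cells before puberty, 57.1% (47.7 to 66.2) of those at puberty and 40.9% (26.3 to 56.8) of those of the adult. The 12 kept pre-pubertal cells with numbers 1 to 37, which were deeper (median 937330 reads), had 621 CPM of Perp and 51.1 CPM of Cdh3. The 104 cells from 38 on had 132 CPM and 2.32 CPM, and against them alone the log2 ratio of Perp for puberty was 1.20. The labels do not say what sets the cells with low numbers apart.

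Tjp1 was the member that lay between the 2-fold limits in all 3 pairs of stages. It stood at 97.1 CPM (94.1 to 100.2) before puberty, 116 CPM (114 to 119) at puberty and 69.6 CPM (65.9 to 73.5) in the adult. The log2 ratios were 0.25, -0.45 and -0.70 for puberty over pre-puberty, adult over pre-puberty and adult over puberty. Among adult reads 39.2% came from cell 5, and the last ratio was -1.24, past 2-fold, once the leading cell of each stage was left out. The median cell had 39.7, 48.2 and 0.714 CPM, and the highest cell 1231, 1667 and 1788 CPM. Unlike Perp, it was spread over the pre-pubertal cells, as 11 cells were needed to reach 50% of its reads and 65.5% of thinned cells (56.1 to 74.1) had at least 1. The shares at puberty and in the adult were 70.6% (61.5 to 78.6) and 40.9% (26.3 to 56.8).

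**Figure D2:**
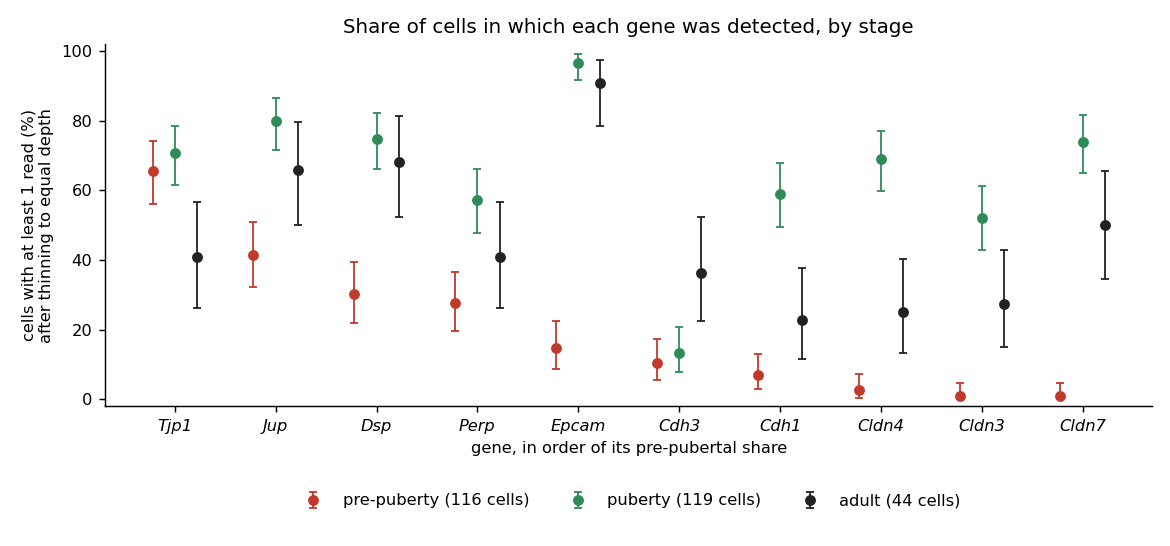
Share of cells with at least 1 read of each gene after thinning every cell to 100000 reads, for the 3 stages (points, with exact binomial 95% intervals as bars), in order of the pre-pubertal share. Tjp1 is the gene whose pre-pubertal (65.5%) and pubertal (70.6%) shares lie closest among those found in most cells, and Epcam shows the largest gap (14.7% against 96.6%).

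Per length of transcript, which allows genes to be compared with each other, the order of the members changed with the stage. In reads per 1000 bases per 1000000 reads (RPKM), the pre-pubertal order was Perp at 136 RPKM, then Tjp1 at 13.7, Dsp at 9.25, Jup at 8.73 and Epcam at 7.94, with Cdh3 at 3.73, Cdh1 at 1.69 and every claudin under 1 RPKM. Neighbours from Dsp to Epcam, and Cldn3 with Cldn4, had overlapping counting intervals. At puberty Epcam led at 456 RPKM, before Perp at 163, Cldn4 at 133, Cldn3 at 91.7, Cldn7 at 86.9, Dsp at 49.3 and Jup at 24.7. Tjp1 and Cdh1, at 16.4 and 16.3 RPKM, could not be ordered, and Cdh3 was last at 2.03 RPKM. In the adult Epcam (704 RPKM) and Perp (296 RPKM) again led, Cldn4 stood behind Dsp and Jup, whose intervals overlapped, and Cdh1 was last at 5.59 RPKM.

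By a fixed rule of size, a log2 ratio past 1 in either direction, 7 members were higher at puberty than before it and 0 were lower, with Perp, Tjp1 and Cdh3 between the limits. Of 9869 genes at 10 CPM or more at either stage, 24% were higher and 21.4% lower by the same rule, and all 10 members were among them. The median log2 ratio was 2.49 over the members and 0.12 over all these genes. For adult over pre-puberty 9 members were higher, 0 lower and Tjp1 between, beside 28.9% of genes higher and 31.7% lower, and the medians were 1.45 and -0.03. For adult over puberty 1 member was higher (Cdh3) and 2 lower (Cdh1 and Cldn4), beside 20.6% higher and 28.4% lower among all genes, and the medians were 0.19 and -0.10. The first 2 of these comparisons share the pre-pubertal cells. In the last, the mix of luminal and basal cells differed between the stages, as the split by keratin below shows.

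Members were found together in far more cells at the later stages. The number of members detected in a thinned cell had a median of 2 before puberty (quartiles 1 and 3, highest 7), 7 at puberty (5.5 and 8, highest 10) and 5 in the adult (4 and 5.25, highest 9). At least 5 members were detected in 7.76% of pre-pubertal cells (9 of 116, 95% interval 3.61 to 14.2), in 85.7% of pubertal cells (102 of 119, 78.1 to 91.5) and in 56.8% of adult cells (25 of 44, 41.0 to 71.7). No member was found in 15 pre-pubertal cells (12.9%), while every pubertal and adult cell had at least 1. Without thinning the medians were 2, 8 and 5.5. The number of members followed the number of genes detected only in part. Spearman correlations over cells were 0.32, 0.39 and 0.30 in order of stage. The adult cells had fewer genes detected before thinning (median 2926.5) than the pubertal cells (3596), and the part of this in their lower numbers was not tested. These values are descriptions, because cells may share a chip and no label gives it.

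**Figure D3:**
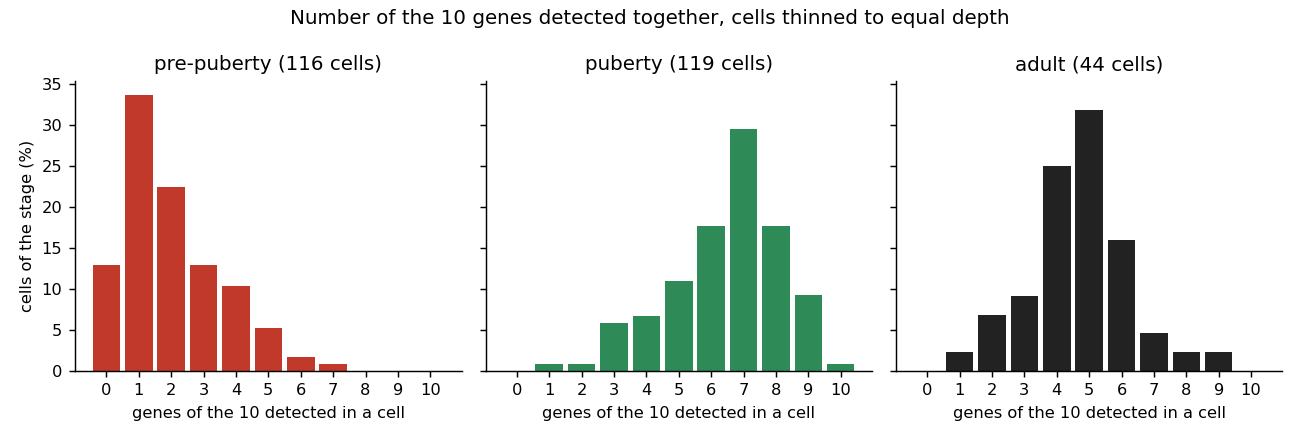
Share of cells (vertical axis, percent) by the number of the 10 genes detected after thinning to 100000 reads, in 1 panel for each stage. Pre-pubertal cells peak at 1 gene (33.6% of cells), pubertal cells at 7 (29.4%) and adult cells at 5 (31.8%).

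Which members met in a cell also differed. All 3 claudins were detected together in 47 of 119 pubertal cells (39.5%), in 3 of 44 adult cells (6.82%) and in 0 of 116 pre-pubertal cells, which allows a share of up to 2.59% (3 of 116). Before puberty 112 cells had no claudin at all. The neighbouring genes Cldn3 and Cldn4 were together in 51 pubertal cells, while 31 had Cldn4 alone and 11 Cldn3 alone. The cadherins were together in few cells, with both in 8 pubertal cells, Cdh1 alone in 62 and Cdh3 alone in 8. In the adult both were in 2 cells, Cdh1 alone in 8 and Cdh3 alone in 14. Cdh3 was itself rare at puberty, in 16 of 119 cells, and 8 of these 16 also had Cdh1, which was in 70 cells. The Spearman correlation of their levels was -0.12 at puberty and -0.21 in the adult. Desmosomal Dsp, Jup and Perp were found together in 13 pre-pubertal cells (11.2%), 50 pubertal cells (42.0%) and 8 adult cells (18.2%).

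Over pubertal cells the claudin levels moved together, with Spearman correlations of 0.53 for Cldn4 with Cldn7, 0.43 for Cldn3 with Cldn7 and 0.43 for Epcam with Cldn7 (119 cells). The lowest values at this stage were -0.26 for Cdh3 with Cldn7 and -0.25 for Cldn4 with Perp. In the 44 adult cells Epcam went with Cldn4 (0.54) and Cldn7 (0.50) and against Perp (-0.39). The adult claudin pairs had 0.40 for Cldn3 with Cldn7, 0.20 for Cldn4 with Cldn7 and 0.06 for Cldn3 with Cldn4, the last against 0.42 at puberty. Before puberty the claudins were too rare for such a value, and the highest were 0.56 for Dsp with Perp and 0.52 for Cdh3 with Dsp (116 cells). The median over all pairs was near 0 at each stage (0.13 over 21 pairs, 0.06 and 0.06 over 45), with 10, 12 and 9 pairs above 0.2 and 0, 3 and 7 under -0.2. The points share thinned depth and gene number, and the values are descriptions.

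Splitting the cells by keratin set the members into those of luminal-keratin cells and those of Krt14 cells. Keratin 14 marks the basal layer and keratins 8 and 18 the luminal layer, and a keratin was called present above 40 RPKM, the threshold the study used for another gene. At puberty 80 cells had a luminal keratin alone, 24 both kinds, 5 Krt14 alone and 10 neither, and in the adult the numbers were 22, 14, 5 and 3. Between 20 and 80 RPKM, near the threshold, lay 4 pubertal and 5 adult cells for Krt14, 9 and 7 for Krt8, and 6 and 6 for Krt18. Groups of 5 cells give only rough values.

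The claudins and Cdh1 were at or near 0 in cells with Krt14 alone. In pubertal cells with a luminal keratin alone, Cldn3, Cldn4 and Cldn7 stood at 153.5, 334 and 171 CPM, in those with both kinds at 78.1, 112 and 73.3 CPM, and in those with Krt14 alone at 0, 0.244 and 0.244 CPM (0, 1 and 1 reads). The adult cells with Krt14 alone had 0, 0 and 3.91 CPM. Cdh1 measured 99.2 CPM in pubertal cells with a luminal keratin alone and 33.6 CPM in those with both, against 3.67 CPM (15 reads) with Krt14 alone, and in the adult it measured 25.0, 37.5 and 0 CPM in these groups. In the adult cells with both, 1 cell held 75.7% of the Cdh1 reads, and 10.6 CPM remained without it, under the 14.9 CPM left in those with a luminal keratin alone without theirs. Epcam was highest with a luminal keratin alone as well, at 1150 CPM at puberty and 1941 CPM in the adult, but it was not absent from the cells with Krt14 alone, which had 204 and 91.9 CPM, the latter 25.1 CPM without the cell that held 77.1% of the reads. All 80 pubertal cells with a luminal keratin alone and all 5 with Krt14 alone had an Epcam read.

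Perp and Cdh3 had the opposite pattern. Perp measured 139 CPM in pubertal cells with a luminal keratin alone, 719.5 CPM with both and 777 CPM with Krt14 alone, and in the adult 176, 813 and 2047 CPM. It was detected in 13.6% of adult cells with a luminal keratin alone (3 of 22, 2.91 to 34.9) and in 71.4% of those with both (10 of 14, 41.9 to 91.6). Cdh3 went from 4.56 to 22.1 and 12.2 CPM at puberty. There 1 cell in each group held 58.5%, 67.5% and 52% of the reads, and 1.90, 7.63 and 7.21 CPM remained without it. In the adult Cdh3 went from 2.39 to 16.4 and 350.02 CPM, where 1 cell held 77.5% of the reads of the last group and 104 CPM remained without it. Of these 3 groups, Dsp was highest in the cells with both kinds of keratin (698 CPM at puberty and 585 CPM in the adult). With a luminal keratin alone it measured 345 and 71.9 CPM, and with Krt14 alone 490.2 and 389 CPM, but 1 pubertal cell held 81.3% of the reads of the last group and 129 CPM remained without it. Jup and Tjp1 had no common direction over these groups at the later stages, and 1 cell held 79.4% of the 404 CPM of Jup in adult cells with Krt14 alone.

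**Figure D4:**
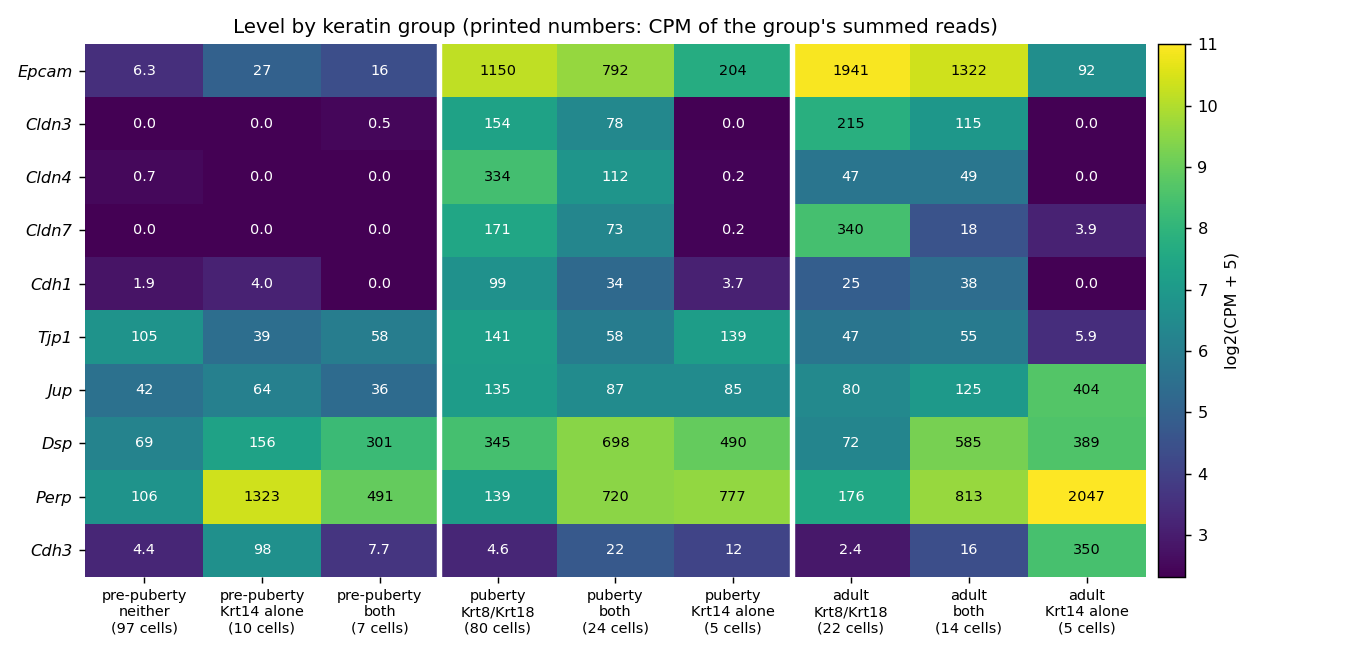
Level of each gene (CPM of the group's summed reads, printed; colour on a log2(CPM + 5) scale) in cells grouped by keratins above 40 RPKM, with Krt8/Krt18 standing for cells with a luminal keratin alone. Claudins and Cdh1 lie at or under 3.98 CPM in every pre-pubertal group and every Krt14-alone group drawn, and Perp is highest in the Krt14-alone groups (1323, 777 and 2047 CPM), the first of which rests on 2 cells. The 2 pre-pubertal cells with a luminal keratin alone and the later cells with neither are not drawn.

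Of the pre-pubertal cells, 97 of 116 had no keratin above the threshold, 10 had Krt14 alone, 7 had both kinds and 2 had a luminal keratin alone. The last 2, cells 55 and 110, made up 1.72% of the cells and held 44.7% of the pre-pubertal Epcam reads, 72.7% of those of Cdh1, 97.6% of Cldn3, 55.1% of Cldn4 and all 5 reads of Cldn7. Cell 55 had Epcam at 2409 CPM, Cdh1 at 165 CPM, Cldn7 at 33.0 CPM and Krt18 at 808 CPM. Cell 110 had Cdh1 at 569 CPM, Cldn3 at 116 CPM, Cldn4 at 76.5 CPM and Krt18 at 7504 CPM. Both carried 6 of the 8 luminal markers, and both also had reads of 10 and 8 of the 13 Schwann markers and of 3 of the 7 fibroblast markers. Their Perp levels were 16.5 and 0 CPM.

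The 17 cells with Krt14, alone or with a luminal keratin, held most of the Perp and Cdh3 reads instead, but only through cells 27 and 30. These 2 cells were deep, with 879967 and 1189157 reads. They held 2359 and 3198 of the 10521 Perp reads, and cell 27 held 435 of the 607 Cdh3 reads. Most of the reads left without them came from the 97 cells with no keratin above the threshold, which had 3583 Perp and 150 Cdh3 reads. Cells with Krt14 alone were 8.62% of the pre-pubertal cells and held 56.9% of the Perp reads and 72.8% of the Cdh3 reads, the latter nearly all from cell 27. Their Perp level was 1323 CPM, and it was detected in 7 of the 10 cells, but cells 27 and 30 held 92.8% of these reads. Without these 2 cells 175 CPM remained, under the 491 CPM of the cells with both kinds of keratin, where 165 CPM remained without the 2 leading cells. Dsp was detected in 8 of these 10 and in 6 of the 7 cells with both kinds of keratin, at 155.6 and 301 CPM. No claudin read was found in the 10 cells with Krt14 alone.

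Tjp1 was what most of the 97 pre-pubertal cells with no keratin above the threshold retained, with Jup, Dsp and Perp in fewer of them. Tjp1 stood at 105 CPM and was detected in 66.0% (64 of 97, 55.7 to 75.3), Jup at 42.1 CPM in 37.1% (27.5 to 47.5), Dsp at 68.7 CPM in 20.6% (13.1 to 30.0) and Perp at 106 CPM in 18.6% (11.4 to 27.7). Epcam was down to 6.34 CPM and 8.25% of the cells, and Cldn3 and Cldn7 had 0 reads. A median of 1 member was detected in these cells against 4 in the 19 cells with any keratin. Against the cells without keratin alone, the log2 ratio of Perp for puberty was 1.504, past the 2-fold limit, whereas the ratio over all kept cells was 0.26. Of the 9 pre-pubertal cells with at least 5 members, 5 had no keratin above the threshold, among them cell 66, which had Perp at 3781 CPM and Dsp at 1801 CPM together with 7 Schwann markers.

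Relative to puberty, the pre-pubertal level was 83.4% for Tjp1, 83.3% for Perp, 35.4% for Jup, 18.7% for Dsp, 10.4% for Cdh1, 1.74% for Epcam, and 0.891%, 0.501% and 0.0972% for Cldn3, Cldn4 and Cldn7. Cdh3 was the member with a higher level before puberty, at 184% of the pubertal one. Without the leading cell of each stage the values were 81.0% for Cdh3, 77.7% for Tjp1 and 66.4% for Perp. They were 26.4% for Jup, 19.4% for Dsp, 4.05% for Cdh1 and 1.01% for Epcam. The pre-pubertal cells from 38 on had 132 CPM of Perp and 2.32 CPM of Cdh3, against 310.1 and 8.12 CPM at puberty. In the share of thinned cells, the pre-pubertal value was 92.8% of the pubertal one for Tjp1, 76.9% for Cdh3, 51.8% for Jup, 48.3% for Perp and 40.3% for Dsp, and 15.2% or less for the other 5. Both measures placed Tjp1 among the best retained members and the claudins last.

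The other genes of these junctions were read from lists of 83 genes. For puberty over pre-puberty, 63 of them were at 10 CPM or more at either stage, of which 37 were higher past 2-fold, 11 lower and 15 between, beside 24% higher and 21.4% lower among all genes. The epithelial surface list had 6 of 7 tested genes higher and 0 lower, the tight junction list 14 of 17 higher and 1 lower, and the desmosome list 6 of 8 higher and 0 lower. The adherens list was mixed, with 4 of 9 higher and 1 lower. The lists were drawn up with results of these data known, and a gene that passed through its high stage alone had to differ, so these counts are descriptions.

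Most tight junction and surface partners were, like the claudins, higher at puberty than before it. The exceptions, named here after their values were seen, were Cldn11, which was lower (10.1 to 2.01 CPM, -1.11), and Cldn19 (-0.46), Pard3 (0.15) and Cd9 (-0.42) between the limits. For Cldn19, 1 pubertal cell held 97.7% of the pubertal reads. Without the leading cell of each stage its ratio was -2.17, past 2-fold. Cgn (cingulin), a cytoplasmic plaque protein, stood at 0.467 CPM before puberty and 78.1 CPM at puberty (log2 ratio 3.93), F11r (JAM-A), an adhesion receptor of tight junctions, at 8.40 and 194 CPM (3.89), and Ocln (occludin), a membrane protein of the seal, at 1.87 and 91.0 CPM (3.81). In the adult F11r was at 281 CPM, but Ocln was at 1.39 CPM and Cgn at 19.3 CPM. Of the surface genes, Prom1 (prominin 1) stood at 0.221 and 72.3 CPM (3.89), Cd24a, whose product was stained in the sort, at 85.0 and 974 CPM (3.44), and Spint1, an inhibitor of membrane-bound serine proteases, at 7.98 and 95.8 CPM (2.96). The study describes total epithelium on its other single-cell platform as sorted for CD24. It does not state the gate for the cells used here, so Cd24a may have been selected on.

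Desmosomal and adherens partners were divided. Dsc2 (desmocollin 2) and Dsg2 (desmoglein 2), the desmosomal cadherins, stood at 0.319 and 39.5 CPM before puberty and at 158.5 and 573 CPM at puberty (log2 ratios 4.94 and 3.70), and the plaque protein gene Pkp2 had 57 reads before puberty and 21.8 CPM at puberty (2.06). Afdn (afadin), which links nectins to actin, stood at 7.61 and 111 CPM (3.20) and Nectin4 at 2.92 and 36.9 CPM (2.40), whereas Nectin3 was lower at puberty, at 78.5 and 24.5 CPM (-1.50). Before puberty Dsc2 was thus near absent, whereas Dsg2 at 6.89 RPKM lay near Jup at 8.73 RPKM.

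The lists with lower genes at puberty held other adhesion molecules. All 3 tested cadherins of the remaining list were lower: Cdh19, a cadherin of Schwann cell precursors that is also in the Schwann marker list, went from 1016 CPM to 0.161 CPM (-7.63), Cdh2 (N-cadherin) from 45.1 to 2.04 CPM (-2.83) and Cdh11 from 23.6 to 0.380 CPM (-2.41). In the gap junction list Gjc3, a connexin of myelinating glia, had 240.1 CPM before puberty and 0 reads at puberty, at least 5483-fold lower against a floor of 3 reads over the stage. Gjb2 went from 35.5 to 0.978 CPM (-2.76), while Gja1 (connexin 43) was between the limits, at 283 and 534 CPM (0.90). Of 6 hemidesmosome genes, which bind cells to the basement membrane, Itgb4 was lower (91.3 to 18.1 CPM, -2.06), as was Dst (1307 to 390 CPM, -1.73), and Col17a1 was higher (24.7 to 87.3 CPM, 1.64).

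Among 10 tested regulators of epithelial identity, 6 were higher at puberty and 2 lower, beside 24% and 21.4% of all genes. The Ets factors Ehf and Elf3, which are found in secretory and lining epithelia, stood at 0.0491 and 0.983 CPM before puberty and at 104 and 73.9 CPM at puberty (log2 ratios 4.43 and 3.72). Zeb2, a repressor of Cdh1 in mesenchymal cells, went the other way, from 1010 CPM to 55.6 CPM (-4.07) and 0.267 CPM in the adult. A single pubertal cell held 80.8% of the pubertal reads, and 10.8 CPM remained without it. Zeb2 was detected in 96.6%, 11.8% and 2.27% of thinned cells. It is also active in Schwann cells, and the Schwann markers had the same order of stages (14149, 1396 and 299.8 CPM). Their part in this result was not tested. The other Zeb and Snail genes of the list, named here after their values were seen, had no common direction. Zeb1 was lower at puberty (49.9 to 16.4 CPM, -1.36), and Snai2 lay between the limits (44.3 to 65.8 CPM, 0.52). Snai1 was under 10 CPM at both stages.

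**Figure D5:**
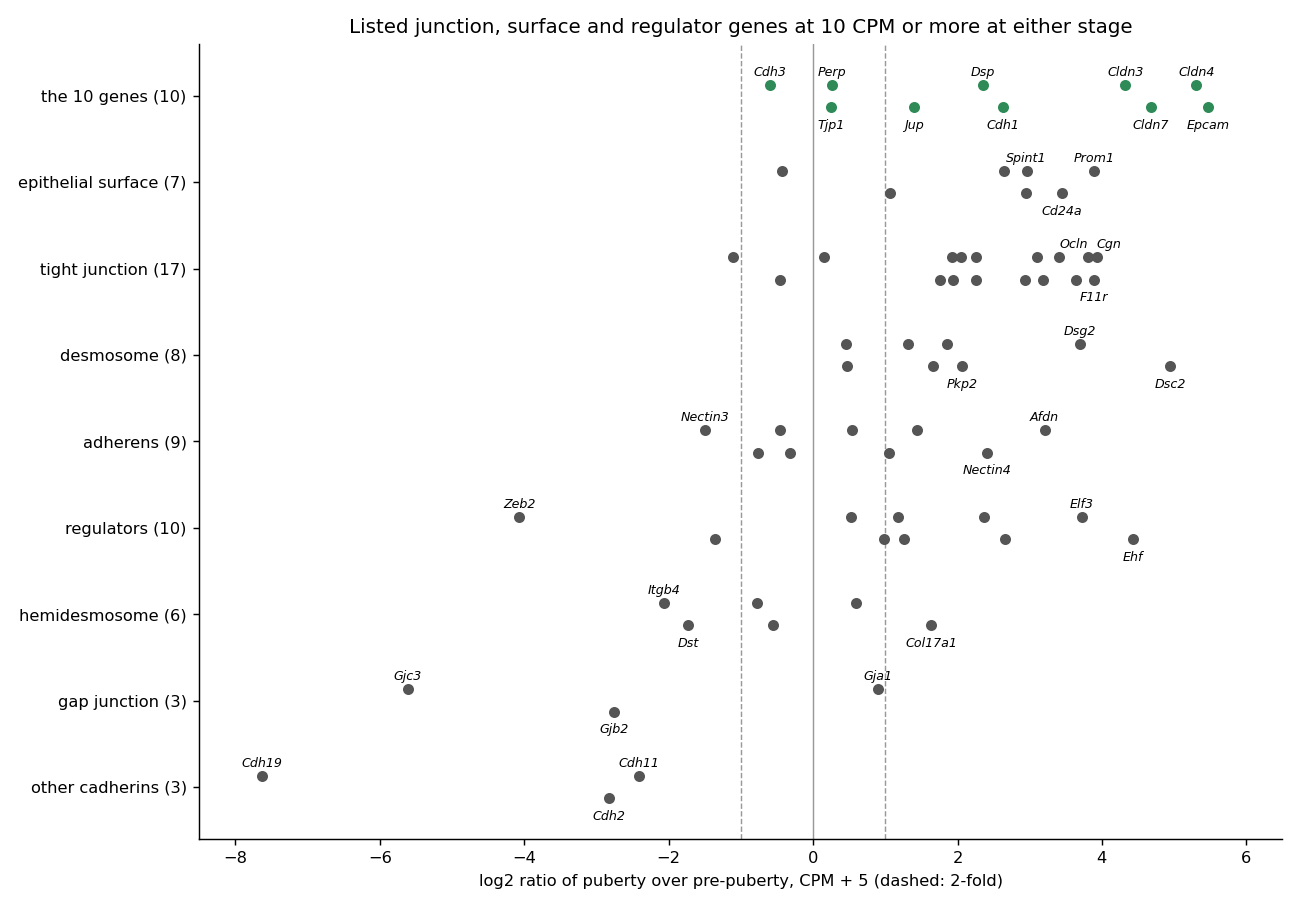
Log2 ratio of puberty over pre-puberty (horizontal axis, CPM with 5 added; dashed lines at 2-fold) for the 10 genes and for the genes of each list at 10 CPM or more at either stage, with the number of genes in brackets and the 3 largest in size named in each list. Surface, tight junction and desmosome genes lie mostly to the right (6 of 7, 14 of 17 and 6 of 8 past 2-fold), and the 3 cadherins of the last row lie to the left.

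Genes whose pubertal pattern over cells was most like the mean of the members were sought among 1571 genes found in at least 50% of pubertal cells. The highest Spearman correlations over the 119 cells were 0.48 for Mgst3, 0.48 for Krt19, 0.47 for Krt8, 0.46 for Rbm47 and 0.43 for AW112010. Over the 44 adult cells the same genes had 0.10, 0.36, 0.37, 0.16 and 0.16, so Krt19 and Krt8 kept the larger values. These correlations are weak, and gene number per cell moves with both sides of them.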

How the data were processed

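The authors deposited, for each of the 346 cells, whole-number counts of read pairs per Entrez gene, not normalised. Per the labels and the study's methods, read pairs were mapped to mm10 with Subread (1.4.6 in the submitters' processing notes) and assigned to genes of Rsubread's own RefSeq set by featureCounts. There were no molecular identifiers, so amplified copies are counted separately, and the treatment of reads shared by similar genes is not given in the sources used here. Gene lengths are other deposited values, used for RPKM.

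Symbols came from RefSeq GRCm38.p6 (25275 of 27179 genes matched). The 1904 unmatched, 15 mitochondrial and 118 ribosomal protein genes were removed. Reads on the other genes ran from 109387 to 1189157 per kept cell. No doublet caller was run, since the authors inspected each captured cell by microscope, and no 2 cells were identical.

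Reads were summed by stage and expressed as CPM with exact Poisson intervals at 95%. With 1 sample a stage there was no test. Shares have Clopper-Pearson intervals, and a count of 0 has the limit that 3 counts give. A gene was called past 2-fold beyond a log2 ratio of 1 with 5 CPM added, among genes at 10 CPM or more at either stage. Detection was read after thinning each cell to 100000 reads. Likeness was the Spearman correlation over pubertal cells. Named genes were all members, the 3 largest ratios of each list and the 5 highest correlations. Of the lists, 1 gene is not reported here. The members, lists and the Schwann limit of 7 markers were chosen with earlier results of these data known. The calculations were tested on simulated data. Python 3.11.15, numpy 2.4.6, scipy 1.17.1 and pandas 2.3.3 were used.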

Additional observations from a re-analysis of the deposited data

Results flagged for a closer look

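Cells below the coverage filter, which the comparisons do not use, also held reads of the 10 genes, above the limit that a count of 0 allows. The summed level of the members was 687 CPM (95% Poisson interval 619 to 762) in 28 pre-pubertal cells, 2190 CPM (2085 to 2298) in 17 pubertal cells and 2043 CPM (1911 to 2182) in 22 adult cells, against 529, 2526 and 2913 CPM in the kept cells. Perp made up 64.5% of the pre-pubertal member reads, Epcam 54.9% of the pubertal and Dsp 43.2% of the adult ones. Without the leading cell the levels were 572, 1715 and 1549 CPM. These cells were shallow, with medians of 11328 reads before puberty, 33276 at puberty and 14390 in the adult.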

How the results depend on the processing

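Of 101 values of the main counts and shares under other settings, 85 stayed the same by the rule used and 16 moved. Of the remaining values, the log2 ratios of single members among them, 396 stayed the same, 255 moved and 2 reversed. The count of members higher in the adult than at puberty, 1 here, was 2 with a filter of 200000 reads and 2000 genes, 2 in cells of 200000 to 600000 reads and 0 without the leading cell of each gene and stage, and the count lower went from 2 to 4 in the last setting. Against pre-pubertal cells 1 to 37 alone, 1 member (Cdh3) was lower at puberty instead of 0, and the log2 ratios of adult over pre-puberty turned to -0.18 for Cdh3 and -0.14 for Perp. The share of cells with at least 5 members became 17.2%, 95.0% and 75% before puberty, at puberty and in the adult without thinning, 1.72% before puberty and 40.9% in the adult with thinning to 50000 reads, 2.59%, 66.4% and 22.7% when 3 reads were required, and 0%, 23.5% and 6.82% above 40 RPKM. The cause of these shifts was not tested, but the order of the stages was kept in each. Perp was higher in the adult than before puberty by less than 2-fold when all genes were in the total (0.95) or with median-of-ratios scaling (0.91). In cells of 200000 to 600000 reads it was past 2-fold at puberty over pre-puberty (1.33). Dropping the leading cell of every gene moved the median of all genes to -0.65 for adult over pre-puberty and -0.72 for adult over puberty, and other scalings moved it by up to 0.21. Counts with no filter on low genes put 20.0% of genes past 2-fold at puberty over pre-puberty instead of 45.5%. Leaving out pre-pubertal cells with keratin, or later cells with 7 or more Schwann markers, was added after the data were seen; the second changed no call. Also added then was leaving out the leading cell of each listed gene and stage. For puberty over pre-puberty this moved Cldn19 from between the limits to lower past 2-fold (-2.17). The other listed genes named stayed on the same side of the 2-fold limits. No paired analysis was possible because cell numbers are only names and no result comes from a test. At this depth 3 reads over the stage equal 0.0737 CPM before puberty, 0.0438 CPM at puberty and 0.160 CPM in the adult.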

Other observations

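Between puberty and adult, the other listed junction genes differed in both directions. Of 61 at 10 CPM or more at either stage, 9 were higher in the adult past 2-fold, 18 lower and 34 between, beside 20.6% and 28.4% of all genes. Ocln was lower (91.0 against 1.39 CPM, log2 ratio -3.91) and so was Cgn (-1.77), while F11r lay between the limits (0.52). Ehf was higher in the adult (104 against 275 CPM, 1.36), and all 7 surface genes lay between the limits.

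The 10 pubertal cells with no keratin above the threshold had Dsp at 905 CPM and Epcam at 230.4 CPM, of which 1 cell held 82.3% and 72.7%. Without that cell the levels were 191 and 75.2 CPM. A median of 3.5 members was detected in these cells, against 7 in the 80 with a luminal keratin alone.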
